A study of Homo sapiens with 8 samples.

Results

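The 9 genes CSMD1, PTPRD, LRP1B, CNTNAP2, MACROD2, CSMD3, CTNNA3, RBFOX1 and WWOX are among the longest in the human genome, and most are best known from neurons. Their members here were the regions of the deposited table that overlapped the hg19 window of a gene by any amount, and the rule uses positions alone. Of the 34703 regions, 70 met the rule, in 8 of the 9 genes. CSMD1 and CNTNAP2 held 17 regions each, PTPRD and MACROD2 11 each, CTNNA3 10, WWOX 2, and LRP1B and CSMD3 1 each. RBFOX1 held 0. The windows were 1.12 Mb (WWOX) to 2.31 Mb (PTPRD and CNTNAP2) long and made up 16.5 Mb together. No expression was used here, so the neuronal label of the genes could not be checked in these cells.

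Chromatin immunoprecipitation with sequencing (ChIP-seq) gave the histone marks H2AK119ub and H3K27me3 in HAP1 cells. HAP1 is nearly haploid and descends from KBM-7, a line from a chronic myelogenous leukaemia. The 4 groups of 2 libraries were wild-type cells and RING1A/B double-knockout cells, each with both marks. The double-knockout line came from RING1A-knockout HAP1 cells that were edited with CRISPR in RING1B, the product of the RNF2 gene, and grown from single sorted cells, whereas the wild-type cells carried neither knockout. Per the labels' protocols the libraries were biological duplicates, the sources used here do not give the number of knockout clones behind them, and p-values measure only the spread between these cultures.

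RING1A and RING1B are the ubiquitin ligases of Polycomb repressive complex 1 and write H2AK119ub, and Polycomb repressive complex 2 writes H3K27me3. Both marks are known from silenced developmental genes, where they lie over CG-rich promoters, and from broad low domains in silent chromatin; variants of the second complex can bind H2AK119ub. Very long genes of this kind consist almost wholly of introns, and several of them, such as WWOX, MACROD2 and LRP1B, lie in common fragile sites that break under replication stress.

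Promoter sequence is shown for 4 of the genes, to set the CG content at a gene start beside what the marks did there. In RefSeq, 6 of the 9 genes matched an entry (build GRCh38.p14), and the 250 bases before the start are printed 5′ to 3′ on the strand of the gene, with the dinucleotide CG in capitals. The entry of PTPRD was chr9:10613003-10613252 on the minus strand, that of MACROD2 chr20:13995266-13995515 on the plus strand, that of RBFOX1 chr16:6018774-6019023 on the plus strand and that of CTNNA3 chr10:67696196-67696445 on the minus strand. The regions are on hg19, so overlap with these sequences was not computed.
PTPRD: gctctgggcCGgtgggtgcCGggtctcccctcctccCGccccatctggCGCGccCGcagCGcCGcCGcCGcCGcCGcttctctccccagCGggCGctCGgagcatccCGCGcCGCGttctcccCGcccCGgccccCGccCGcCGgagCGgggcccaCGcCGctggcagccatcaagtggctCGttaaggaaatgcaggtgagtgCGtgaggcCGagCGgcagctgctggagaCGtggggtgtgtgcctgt
MACROD2: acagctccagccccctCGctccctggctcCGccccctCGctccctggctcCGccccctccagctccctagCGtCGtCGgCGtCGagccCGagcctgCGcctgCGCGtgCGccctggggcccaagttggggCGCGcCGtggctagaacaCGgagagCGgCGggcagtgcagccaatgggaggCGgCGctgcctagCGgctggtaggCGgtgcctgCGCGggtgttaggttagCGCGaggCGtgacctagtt
RBFOX1: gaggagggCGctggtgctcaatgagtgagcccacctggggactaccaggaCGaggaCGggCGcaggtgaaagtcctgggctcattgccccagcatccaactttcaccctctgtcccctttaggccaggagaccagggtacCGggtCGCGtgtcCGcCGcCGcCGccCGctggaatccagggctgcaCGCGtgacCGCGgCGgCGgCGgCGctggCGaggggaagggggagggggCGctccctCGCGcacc
CTNNA3: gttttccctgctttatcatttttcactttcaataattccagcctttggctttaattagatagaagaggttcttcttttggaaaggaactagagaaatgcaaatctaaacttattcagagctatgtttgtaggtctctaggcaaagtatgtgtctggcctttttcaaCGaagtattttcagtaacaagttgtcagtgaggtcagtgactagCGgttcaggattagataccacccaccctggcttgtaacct
CG was found 32 times before the start of PTPRD (GC content 76.0%), 29 times for MACROD2 (73.2%), 24 times for RBFOX1 (70.8%) and 2 times for CTNNA3 (38.8%). The WWOX sequence, not printed, held 27 and that of CNTNAP2 12. Over all 35116 promoters of the table the median was 11, and 93.9% held at least 1 CG. As many CG as in PTPRD were found in 9.52% of all promoters, as many as in RBFOX1 in 23.7%, and as many as in CTNNA3 in 85.3%. CG reads the same on both strands, and no other motif was searched.

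Regions were sparse in these genes. They covered 440.6 kb of the windows, or 2.67%, against 15.6% of the span of the chromosomes for the whole table, and there were 4.24 regions per Mb against 11.8. The median width was 4.0 kb against 6.0 kb in the whole table. Among non-overlapping 2 Mb bins of the genome the median covered share was 12.5%, and each of the 9 windows lay below it. CSMD1 came nearest with 7.1%, and it was followed by CNTNAP2 with 5.01%, PTPRD with 3.02%, CTNNA3 with 2.66% and MACROD2 with 2.61%. In CSMD3 0.246% was covered, in WWOX 0.214% and in LRP1B 0.0524%. The empty window of RBFOX1, a splicing regulator of neurons and muscle, is a state shared with 74 of the 1486 bins (4.98%). Bins over gaps in the genome assembly, such as centromeres, were not set aside, so the share of empty bins outside such gaps is unknown.

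**Figure D1:**
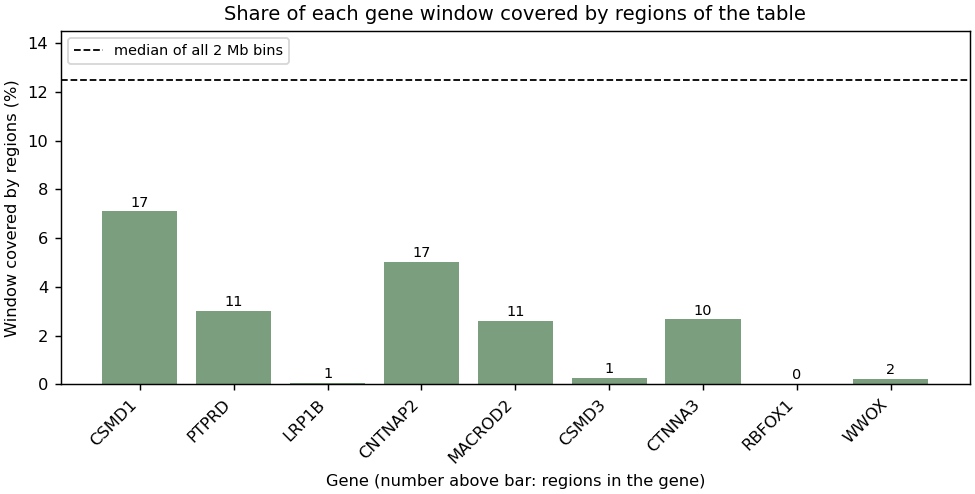
Covered share of each gene window (%, bars) with the number of regions above each bar, and the median of all 2 Mb bins as a dashed line. All 9 bars end below the line at 12.5%, CSMD1 at 7.1% and RBFOX1 at 0.

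Long stretches without a region crossed the windows. RBFOX1 lay wholly inside a stretch of 2.73 Mb, chr16:5533201-8263200, the 45th longest of 34680 with gaps in the genome assembly not set aside. A longer one, 3.64 Mb, began inside CSMD3 and ran on beyond the gene. The window of LRP1B, which encodes a member of the low-density lipoprotein receptor family, was entered by a stretch of 2.25 Mb, of which 1390.0 kb lay inside it. Each of the other 6 windows held or was entered by a stretch of 1.08 to 1.22 Mb; inside PTPRD and MACROD2 the longest was 780.2 kb and 722.6 kb. The table lists regions and not the signal between them, so a stretch without a region is not a measured level of 0.

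H2AK119ub was present over the members in wild-type cells and near 0 in double-knockout cells. Summed over the 70 regions, the 2 wild-type libraries held 1086 and 1521 normalized counts and the double-knockout libraries 12 and 23. The means were 1304 ± 308 and 17.5 ± 7.78 (SD, n = 2), so that 1.34% of the wild-type level was left, beside 1.11% over the whole table. The members' share of the library total was 0.0689% and 0.0815% in the wild type and 0.0699% and 0.110% in the double knockout, and the groups overlapped. In 49 of the 70 regions (70.0%) both double-knockout libraries were at 0, against 54.7% of all regions, and no member exceeded a normalized count of 3 in either.

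Gene by gene, the fall in H2AK119ub left no overlap between genotypes in any of the 8 genes with regions. In CNTNAP2, which encodes a cell adhesion protein of the neurexin superfamily, the sums were 321 and 374 in the wild type and 1 and 8 in the double knockout. For CSMD1, a large membrane protein with CUB and sushi domains, the values were 285 and 357 against 5 and 4. PTPRD, a receptor tyrosine phosphatase of synapses, had 195 and 345 against 4 and 3. All of these wild-type values lay far above the double-knockout ones, although the wild-type pair itself differed by a larger ratio in PTPRD than in CNTNAP2. MACROD2, an enzyme that removes ADP-ribose from proteins, had 141 and 223 against 1 and 5. CTNNA3, the gene of alpha-T-catenin in cell junctions, had 95 and 150 against 1 and 2. WWOX, an oxidoreductase with WW domains, had 37 and 50 against 0 and 1. Of its wild-type sums, 34 and 47 came from 1 region with only 0.4 of its 18.4 kb inside the window. The lone regions of CSMD3 (4 and 16) and LRP1B (8 and 6) had 0 in both double-knockout libraries.

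The test was limma on log2(normalized count + 1), with Benjamini-Hochberg adjustment over all tested features at 0.05. All 31 members tested for H2AK119ub were lower, where 100.0% of tested regions were lower in the table (23699 of 23700). Each of the 31 had passed the filter, at least 2 libraries at 10 or more, through the wild type alone, so the filter itself required a difference. Without the filter 70 of 70 members were lower, against 97.5% of all regions. Without wild-type replicate 1 or 2, 19 of the 31 were called, beside 12397 or 12377 of the 23700 regions. The 6 gene sums that could be tested were all lower by limma, against 100.0% of 2 Mb bins, with log2 fold changes of −4.96 (WWOX) to −6.36 (CNTNAP2). The sum of WWOX rests on the region that reaches its window by 0.4 kb, since the other held 3 and 3 in the wild type. LRP1B, CSMD3 and RBFOX1 had too few counts to be tested. Each of these shares lay at or near its background.

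Per Mb of window, CSMD1 had the highest mean of both marks in wild-type cells. For H3K27me3 it held 271 and 274 normalized counts per Mb, followed by PTPRD (207 and 190). MACROD2 (154 and 180) and CNTNAP2 (149 and 167) overlapped each other. CTNNA3 (112 and 88.8), WWOX (69.6 and 78.6), CSMD3 (12.3 and 15.6) and LRP1B (5.24 and 6.28) followed with no overlap between neighbours. The place of WWOX rests on 1 region with 67 and 75 normalized counts, of which only 0.4 of 18.4 kb lay inside the window. Its other region held 11 and 13. For H2AK119ub, from CSMD1 (138 and 172) over CNTNAP2, PTPRD and MACROD2 to CTNNA3 each gene overlapped the next. Per kb of region the median wild-type level of the members was below that of the table, at 2.50 against 3.22 for H2AK119ub and 4.32 against 4.89 for H3K27me3.

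H3K27me3 went both ways. CSMD1, CNTNAP2, CTNNA3 and WWOX rose in the double knockout, and PTPRD, MACROD2, CSMD3 and LRP1B fell. By limma, 4 of 8 tested gene sums were higher, where 52.9% of 2 Mb bins were higher, and 4 of 8 were lower, where 20.3% of bins were lower. Among the lower sums, LRP1B (10 and 12 in the wild type) and CSMD3 (15 and 19) were 1 small region each. Both reached the filter through the wild type alone, so the filter itself required a difference there, and the count of lower genes is a description. The prior of this fit had infinite degrees of freedom, so its p-values rest on a spread shared across all bins and not on each gene's own pair.

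**Figure D2:**
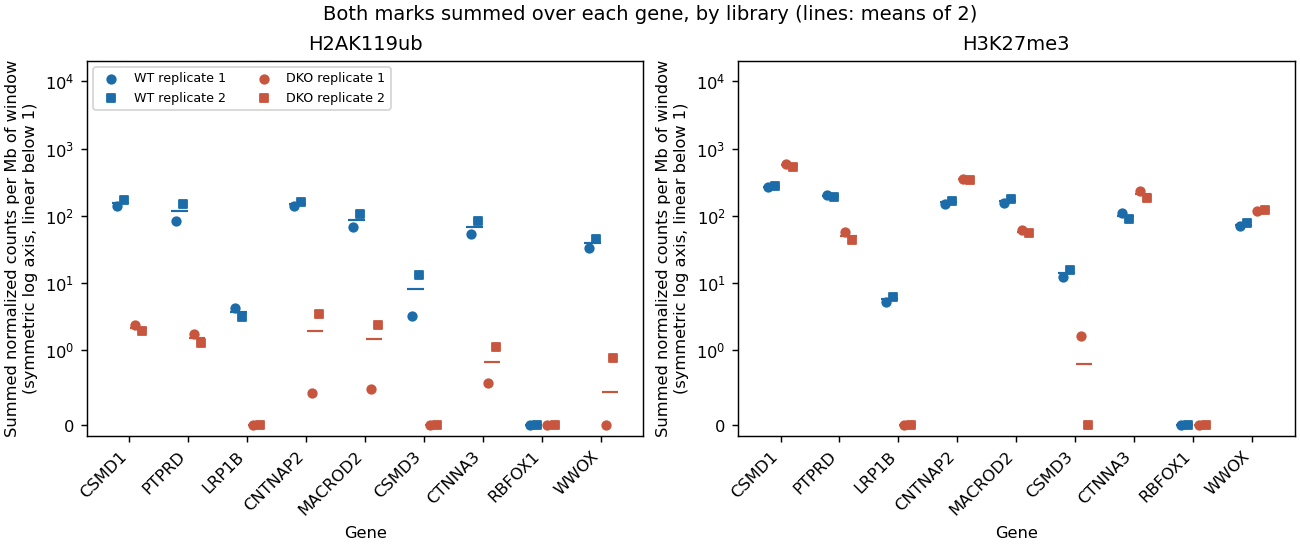
Normalized counts summed over the regions of each gene per Mb of window, H2AK119ub on the left and H3K27me3 on the right, on a symmetric log axis that is linear below 1. Each point is 1 library and each line a mean of 2; for H3K27me3 the double-knockout points lie above the wild-type points in CSMD1, CNTNAP2, CTNNA3 and WWOX and below them in PTPRD, LRP1B, MACROD2 and CSMD3.

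Of the genes that rose, CSMD1 had summed H3K27me3 of 560 and 567 in the wild type and 1232 and 1107 in the double knockout. That was 2.08-fold higher (log2 fold change 1.05 ± 0.18 SE, limma adjusted p = 3.08e-08), with a gap between the genotypes far wider than that within either pair. CNTNAP2 rose from 344 and 385 to 828 and 784, which was 2.21-fold (log2 fold change 1.14 ± 0.19 SE, limma adjusted p = 5.85e-09). CTNNA3 rose from 200 and 159 to 421 and 334, or 2.10-fold (log2 fold change 1.07 ± 0.21 SE, limma adjusted p = 1.21e-06); without wild-type replicate 2 the limma adjusted p was 0.0816. The double-knockout pair of CTNNA3 differed more within itself than that of CNTNAP2, but lay wholly above the wild type. WWOX had 78 and 88 against 131 and 136, 1.61-fold higher (log2 fold change 0.68 ± 0.26 SE, limma adjusted p = 0.0127). This call was lost without either wild-type library (limma adjusted p = 0.288 and 0.162) and when libraries were scaled to each other. It rests on 1 region that reaches the window of WWOX by 0.4 kb: with regions placed by their midpoint, the gene instead fell (log2 fold change −1.70, limma adjusted p = 0.0107).

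Of the genes that fell, PTPRD had H3K27me3 of 478 and 440 against 134 and 101, 3.91-fold lower (log2 fold change −1.97 ± 0.22 SE, limma adjusted p = 2.32e-18). MACROD2 had 319 and 373 against 126 and 113, 2.90-fold lower (log2 fold change −1.52 ± 0.22 SE, limma adjusted p = 4.41e-11). In both genes the lower wild-type library was more than 2 times the higher double-knockout one. CSMD3, a relative of CSMD1, had 15 and 19 against 2 and 0 (limma adjusted p = 1.01e-05), and LRP1B had 10 and 12 against 0 and 0 (limma adjusted p = 0.000108). For these last genes no fold is given, since the double-knockout values were at or near 0.

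Total H3K27me3 over all regions was 1.45-fold higher in the double knockout, and the median region of the table was higher by 0.58 on the log2 scale. When libraries were scaled to a common level, by median of ratios or column total, the table median moved by −0.50 or −0.51. Of the gene sums, CSMD1 (log2 fold change 0.54 and 0.52), CNTNAP2 (0.64 and 0.62) and CTNNA3 (0.56 and 0.54) were still called higher by limma under these scalings. WWOX was not (0.18 and 0.16, limma adjusted p = 0.362 and 0.424), and the 4 lower genes were called lower under both. Summed over all 70 members, H3K27me3 was 2004 and 2043 in the wild type and 2874 and 2575 in the double knockout, 1.35 times the wild-type mean. As a share of the library total it was 0.0837% and 0.0832% against 0.0759% and 0.0799%, 0.933 times as much. The groups did not overlap in either measure; 2 libraries against 2 allow no exact two-sided permutation p below 0.33, the value reached by both.

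Among single regions, 63 of the 70 members could be tested for H3K27me3. By limma 31 were higher (49.2%), where 47.3% of tested regions in the table were higher, and 23 were lower (36.5%), where 22.8% were lower. Scaling changed this split to 25 higher and 27 lower by median of ratios, and to 24 and 27 by column total. The median log2 fold change of the tested members was 0.73, against 0.58 in the table, whose 10th and 90th percentiles were −1.95 and 1.56. Of the 23 lower regions 16 had reached the filter through the wild type alone, and of the 31 higher ones 8 through the double knockout alone; of the 38 that reached it in both genotypes 23 were higher and 7 lower. These splits were not computed for the whole table, so they describe how the filter acted and are no result about the members. Without either wild-type library 0 members were called in either direction, as was the case for the whole table, whose smallest limma adjusted p was then 0.0836 or 0.0811. The median log2 fold change of the tested members was 0.77 without wild-type replicate 1 and 0.68 without replicate 2, against 0.55 and 0.58 in the table. Without double-knockout replicate 1 it was 0.52 and without replicate 2 0.84, against 0.43 and 0.69 in the table.

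In CSMD1 11 regions were higher, 2 lower and 3 not called, and 1 was not tested. Of the higher regions 8 were neighbours, in a run at chr8:3192801-3437400, toward the 3′ end of the gene. Together they had 268 and 249 in the wild type and 806 and 731 in the double knockout, 2.97-fold more; since a run is made of called regions, its sum, here and in the genes below, is a description. The widest of them, chr8:3192801-3235600, had 147 and 133 against 454 and 423 (log2 fold change 1.64, limma adjusted p = 3.23e-15), and no double-knockout value came near a wild-type one. Nearer the 5′ end the region chr8:4675001-4685200 fell from 62 and 70 to 39 and 37 (log2 fold change −0.78, limma adjusted p = 0.00582). This call was lost in the fit of all 8 libraries (limma adjusted p = 0.103) and without any one library (log2 fold change −0.69 to −0.86). The region at the 5′ end itself, chr8:4846201-4854400, had 111 and 89 against 165 and 143 (log2 fold change 0.62, limma adjusted p = 0.00336). This rise was not called under either scaling (0.12 and 0.10), in the fit of all 8 libraries (limma adjusted p = 0.106) or without any one library. Loss of the call without a wild-type library was common to every called region of the table.

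In CNTNAP2 the picture was of the same shape, with 11 regions higher, 2 lower, 2 not called and 2 not tested. A run of 9 higher regions lay at chr7:147858401-148025600, over the 3′ part of the gene, and went from 201 and 221 to 710 and 680, or 3.29-fold. Its widest region, chr7:147873801-147898400, had 56 and 58 against 167 and 149 (log2 fold change 1.45, limma adjusted p = 1.87e-09). The largest rise among regions with a mean above the median of tested regions was at chr7:147903801-147913400, with 26 and 25 against 111 and 111 (log2 fold change 2.08, limma adjusted p = 5.93e-12). In both regions the double-knockout values lay well above the wild-type ones. Before the run, the region chr7:147661401-147670200, named after its values were seen, fell from 33 and 46 to 4 and 6 (log2 fold change −2.76, limma adjusted p = 9.38e-08). It had reached the filter through the wild type alone. At the 5′ end, chr7:145812201-145815600 had 31 and 32 against 23 and 24 (log2 fold change −0.41, limma adjusted p = 0.267); the groups did not overlap, and with scaled libraries the region was called lower (−0.90 and −0.92).

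CTNNA3 had 6 regions higher, 2 lower and 2 not called. Its higher regions all lay within 346 kb of the 5′ edge. The end region chr10:69452801-69457600 went from 16 and 15 to 64 and 48 (log2 fold change 1.77, limma adjusted p = 1.38e-06), and the widest region, chr10:69434201-69443400, from 27 and 31 to 114 and 112 (log2 fold change 1.93, limma adjusted p = 3.73e-11). A run of 4 further higher regions, chr10:69111201-69307000, had 75 and 54 against 189 and 141, 2.56-fold more. The start of CTNNA3 is the CG-poor sequence printed above. Next to the widest region, chr10:69370401-69373600 had the highest H2AK119ub per kb of all members in the wild type (20 and 38, or 9.06 per kb). Its H3K27me3 fell from 39 and 24 to 3 and 1 (log2 fold change −3.48, limma adjusted p = 1.01e-07), while the neighbour on its other side was not called. The region that fell had reached the filter through the wild type alone. The region chr16:78112001-78130400, 18.4 kb wide, crossed the 5′ edge of the WWOX window with only 0.4 kb inside it. It had 67 and 75 against 128 and 133 (log2 fold change 0.87, limma adjusted p = 0.000143). In the fit of all 8 libraries it was not called (limma adjusted p = 0.0624). Nor was it called without wild-type replicate 1 (log2 fold change 0.79) or 2 (0.95), a loss common to every called region of the table. The call was also lost without double-knockout replicate 1 (0.90). The other WWOX region, chr16:79211201-79213200, had 11 and 13 against 3 and 3 (log2 fold change −1.70, limma adjusted p = 0.0156), and had reached the filter through the wild type alone.

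In PTPRD 8 regions were lower, 2 higher and 1 was not tested. The 8 lower regions followed each other without a break from the 5′ end over 1194 kb, chr9:9421601-10615600, and their sum went from 445 and 412 to 53 and 37, or 9.52-fold lower. At the 5′ end, where the printed start is rich in CG, chr9:10611001-10615600 had 56 and 45 against 7 and 3 (log2 fold change −3.18, limma adjusted p = 4.35e-10). The widest region, chr9:9794401-9815200, had 147 and 130 against 13 and 10 (log2 fold change −3.49, limma adjusted p = 2.03e-20). The largest fall, chr9:9432401-9441000, was from 78 and 88 to 5 and 5 (log2 fold change −3.80, limma adjusted p = 7.52e-16). Apart from the widest region and chr9:10041401-10048800, the lower regions had reached the filter through the wild type alone. For them the filter itself required a difference. The 2 regions that were higher lay next to each other farther into the gene, chr9:9090201-9163400, and went from 19 and 25 to 79 and 61, or 3.18-fold.

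In MACROD2 no region was higher, 6 were lower, 2 were not called and 3 were not tested. The largest fall, chr20:15266201-15279200, was from 76 and 95 to 11 and 9 (log2 fold change −2.97, limma adjusted p = 8.27e-14), and the widest region, chr20:14123801-14138400, went from 70 and 86 to 30 and 24 (log2 fold change −1.50, limma adjusted p = 9.28e-07). The region at the 5′ end, chr20:13975601-13978800, had 15 and 25 against 20 and 18 (log2 fold change −0.03, limma adjusted p = 0.947), and its groups overlapped. The starts of PTPRD and MACROD2 thus both held many CG in the sequences printed above, while the end region of PTPRD fell and that of MACROD2 was not called.

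CSMD3 and LRP1B held 1 small region each, chr8:113386801-113389800 and chr2:142370001-142371000, whose values are those of the genes above. Over all 9 genes, 38 pairs of neighbouring members were both called, 32 in the same direction (84.2%) and 6 in opposite ones, where 89.8% of such pairs in the whole table had the same direction.

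**Figure D3:**
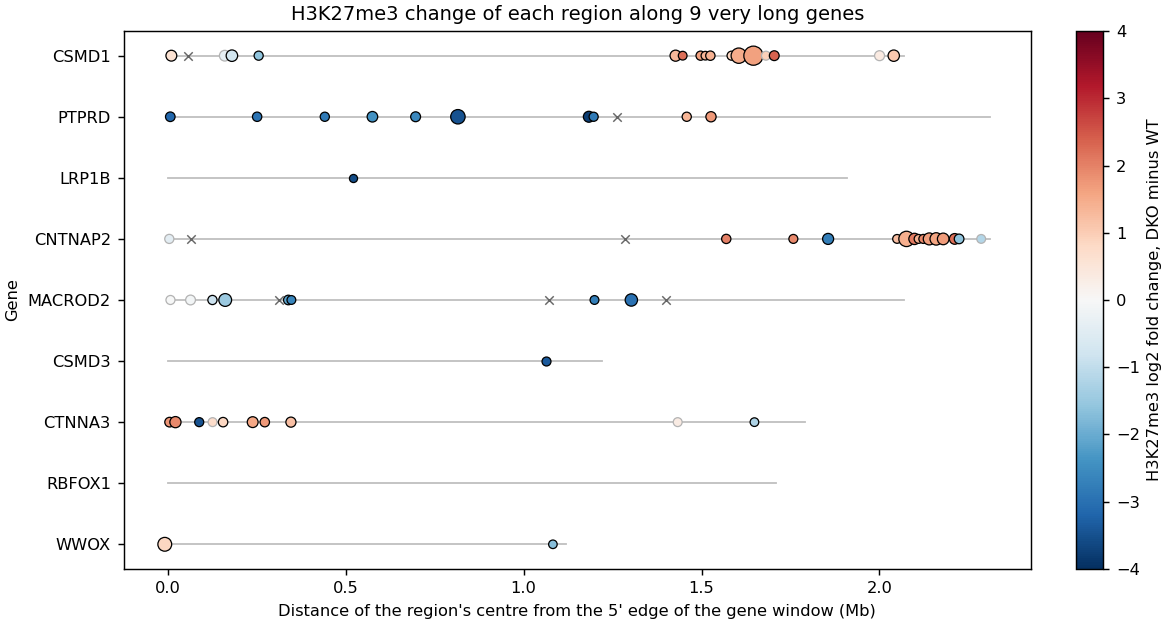
Position of each of the 70 regions along its gene, as the distance of its centre from the 5′ edge of the window (Mb). Symbol area grows with width, colour gives the H3K27me3 log2 fold change (double knockout minus wild type), black outlines mark called regions, pale outlines tested regions that were not called, and crosses regions not tested. CSMD1 and CNTNAP2 show red runs toward the 3′ end, CTNNA3 red in the 5′ part, and PTPRD and MACROD2 are mostly blue.

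A region lay within 20 kb of the 5′ edge of the window in 6 genes: CSMD1, PTPRD, CNTNAP2, MACROD2, CTNNA3 and WWOX. Wild-type H2AK119ub per kb was higher in the end region than over the other regions of the gene together in 5 of the 6, with CTNNA3 the exception (2.29 against 2.61 normalized counts per kb). In WWOX only 0.4 kb of the end region lay inside the window, and it was compared with 1 region of 3 and 3 normalized counts. The ratio was widest in CSMD1, with 5.85 per kb at the end and 1.97 over the other regions, and PTPRD had 6.85 against 3.66. For wild-type H3K27me3 the end was denser in 3 of 6: CSMD1 (12.2 against 3.34 per kb), CNTNAP2 (9.26 against 2.96) and PTPRD (11 against 6.27). In the double knockout, CNTNAP2 had 6.91 at the end and 6.96 over the other regions. In CTNNA3 the end went from 3.23 to 11.7 per kb and the other regions from 3.83 to 7.51.

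The H3K27me3 change was next read along the wild-type H2AK119ub density, which comes from other libraries. All regions of the table were placed in 10 equal bins by wild-type H2AK119ub per kb. In the 5 sparser bins, 44 members were tested, of which 28 were higher and 10 lower with a median log2 fold change of 1.34; of all regions tested there 70.4% were higher and 6.14% lower, with a median of 1.06. In the 5 denser bins, 19 were tested, of which 3 were higher and 13 lower with a median of −2.63; of all regions tested there 23.6% were higher and 39.8% lower, with a median of −0.28. CNTNAP2 had 9 of 9 tested regions of the sparser bins higher, and of 6 in the denser bins 2 higher and 2 lower. PTPRD and MACROD2 differed from the table: 4 of 6 and 3 of 4 of their tested regions in the sparser bins were lower. Some of these had reached the filter through the wild type alone, so the filter itself required a difference there. In PTPRD these were chr9:10367201-10371200, chr9:10177201-10180800 and chr9:9921001-9926400, and in MACROD2 chr20:15167801-15170400. The counts of the 2 genes are therefore a description. Over the 70 members Spearman's rho between wild-type H2AK119ub per kb and the log2 change in the authors' deposited table was −0.529, and −0.599 over all regions. This describes regions that share libraries and, within a gene, their neighbourhood.

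**Figure D4:**
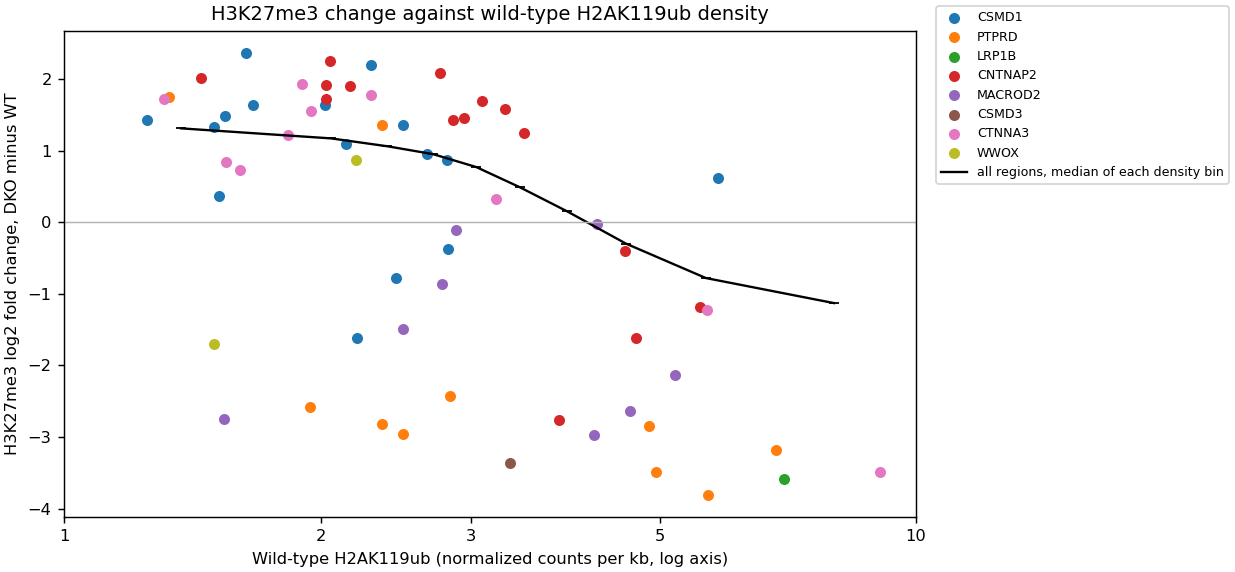
H3K27me3 log2 fold change (double knockout minus wild type) of the 63 tested members against wild-type H2AK119ub (normalized counts per kb, log axis), coloured by gene. The line joins the medians of the 10 density bins of the whole table, drawn at the middle of each bin between 1 and 10; members in sparser bins lie mostly above 0, except in PTPRD and MACROD2, and members in denser bins mostly below.

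The change of H3K27me3 was set against that of H2AK119ub at each region in a limma fit of all 8 libraries. The H3K27me3 change was higher than the H2AK119ub change in 51 of 63 tested members (81.0%), against 93.7% of tested regions, and lower in 0 (0 also at an unadjusted p under 0.05). Double-knockout H2AK119ub was at or near 0 in all members, so the size of its fall was set by the wild-type count. The direction of this difference was therefore largely fixed in advance. In CNTNAP2 all tested members were called, 15 of 15, and in CSMD1 15 of 16. PTPRD had 5 of 10 called. In the other regions of PTPRD the change differed between the marks by −0.66 to 1.21 on the log2 scale, and no wild-type H2AK119ub value there exceeded 22.

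The sequence on both sides of the gene gave another picture for PTPRD and MACROD2. This did not hold for all genes that fell, since the flanks were at 1.06 times the wild type around LRP1B and at 0.486 times around CSMD3. In the 1 Mb on each side, H3K27me3 was 2.55 times the wild-type sum around PTPRD and 1.89 times around MACROD2, while inside the genes it fell. Around MACROD2 25 of 34 tested regions were higher and 1 lower, and around PTPRD 11 of 15 were higher and 4 lower. The share of H3K27me3 of gene plus flanks that lay in PTPRD went from 64.3% and 62.2% to 15.2% and 14.2%. In MACROD2 it went from 14.6% and 16.3% to 3.13% and 3.35%. These shares do not depend on the scale of a library, and the genotypes were far apart in both genes.

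For 3 of the 4 genes that rose, the flanks were higher as well. Around CSMD1 the flanks were at 2.4 times the wild type, around CNTNAP2 at 2.08 times and around CTNNA3 at 1.85 times, beside 1.45 times for the total over all regions. The share in CNTNAP2 was 32.1% and 34.7% against 33.3% and 36.7%, and the groups overlapped. In CTNNA3 it was 55.6% and 56.8% against 58.7% and 60.0%, and in CSMD1 24.3% and 23.2% against 20.7% and 21.6%. Around RBFOX1, whose own window was empty, 27 regions lay in the flanks, and 22 of the 26 tested were higher and 0 lower, with a sum 2.0 times the wild type. Around WWOX, the remaining gene that rose, the flanks were at 1.11 times the wild type, with 9 of 38 tested regions higher and 6 lower, around LRP1B at 1.06 times and around CSMD3, from 15 and 20 to 6 and 11, at 0.486 times.

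**Figure D5:**
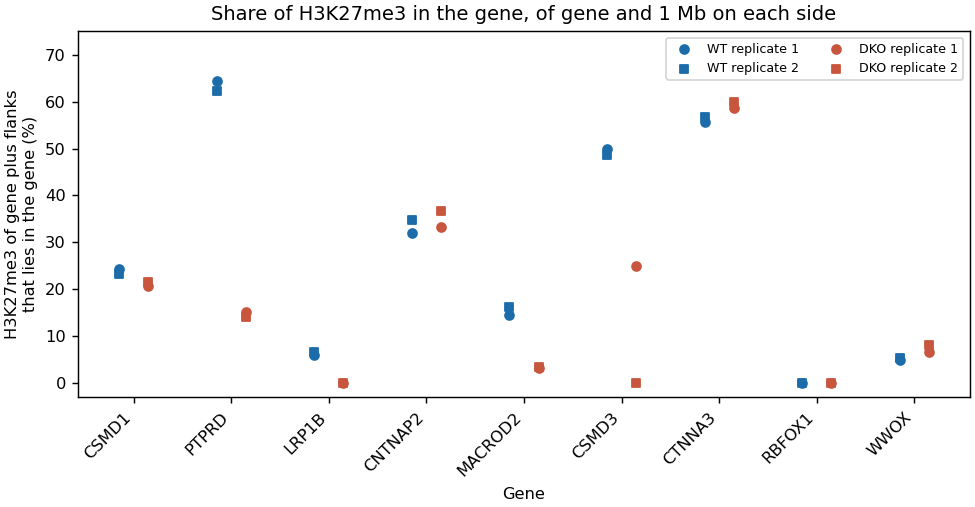
Share (%) of the H3K27me3 of each gene plus 1 Mb on each side that lies in the gene, 1 point per library. The double-knockout points lie far below the wild-type points in PTPRD and MACROD2 and within a few percentage points of them in CSMD1, CNTNAP2, CTNNA3 and WWOX.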

How the data were processed

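Values were the authors' normalized counts per region and library, deposited as whole numbers and treated as a score, since the sources used here do not give the method of normalization or of region calling. Bowtie2, SAMtools, Picard, bedtools and deepTools, with no versions, and hg19 are listed in the submitters' processing notes. The authors' deposited log2 changes and p-values were used only where named. The labels and the written protocol name different H3K27me3 antibodies. Depth is unknown, column totals over the regions were 17159 to 3788824, and differences between libraries rest on the authors' normalization.

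Positions are 1-based on hg19. The rule for members uses positions alone, but the genes, their windows and the tests were chosen with earlier results of these data known. Regions were tested with limma 3.58.1 (R 4.3.3) on log2(normalized count + 1), which understates changes of low regions, with a mean-variance trend and p-values adjusted by Benjamini-Hochberg over all tested regions (threshold 0.05), where 2 libraries reached 10 and the sum 15. Each mark was fitted alone on its 4 libraries, and the difference between marks on all 8. The prior had 1.10 degrees of freedom in the H2AK119ub fit, 107 in the H3K27me3 fit and 4.88 in the joint fit, so the p-values of H3K27me3 rest largely on a spread shared across regions. Gene sums were fitted together with all 2 Mb bins. Named regions were, per gene, the 5′ end region, the widest, and the largest called rise and fall among regions with a mean above the median of tested regions and groups apart, plus the member densest in H2AK119ub; others, and the flanks, were chosen after the values were seen. Strands came from RefSeq for 6 genes and from general knowledge for the other 3. One gene of the chosen set is not reported here. Alternatives were other pseudocounts, filters, scalings, memberships and bins, left-out libraries and a replicate block.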

Additional observations from a re-analysis of the deposited data

How the results depend on the processing

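The 31 members called lower in H2AK119ub became 70 with no filter, 63 in the fit of all 8 libraries and 62 by the fold change and p of the authors' deposited table, and leaving out 1 library gave 19 to 31. For H3K27me3, the 23 lower members became 0 to 15 and the 31 higher ones 0 to 17 when 1 library was left out, with 0 without either wild-type library. Higher members numbered 19 by the fold change and p of the authors' deposited table. The gene sums called higher, 4 of them, became 2 to 4 when 1 library was left out, with 2 without wild-type replicate 2. The gene sums called lower in H2AK119ub, 6 of them, became 4 to 6. With membership by midpoint the sum of WWOX turned to −1.70, because 1 of its 2 regions then lay outside. The 5′ end region of MACROD2 (−0.03, not called) ran from −0.38 to 0.32 when 1 library was left out, and was above 0 without wild-type replicate 2 (0.32) and without double-knockout replicate 2 (0.04). The difference between marks at the CSMD3 region turned from −0.16 to 0.15 with a pseudocount of 0.5 (limma adjusted p = 0.912). The cause was not tested for the other changes. Replicate numbers did not pair the libraries: deviations of same-numbered libraries correlated at 0.011 for H3K27me3. With a replicate block the member counts were 31 higher and 23 lower, as without it. Leaving out a replicate number in the fit of all 8 libraries was not run, since it left no residual degrees of freedom, nor were other genes over 1 Mb. Under the filter on low values, 7 members could not be tested for H3K27me3 and 39 for H2AK119ub.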
